A study of Homo sapiens with 12 samples.

Results

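The genes described here are 10 components of the machinery that copies chromosomal DNA: POLA1, POLA2, PRIM1, POLE, POLE2, POLD1, PCNA, RFC4, FEN1 and LIG1. They were taken by name from the 20595 genes of the deposited count table, through the Ensembl gene identifiers of its rows, and all 10 were found. RNA was sequenced from 2 human lung adenocarcinoma (LUAD) cell lines with MDM2 amplification (MDM2 ampl), A549, which is p53 wild-type (p53 WT), and H1792, which is p53 mutant. Cells of each line were treated for 48 h with the solvent DMSO or with RG7112 at 1 μM, and 3 replicates were sequenced in each of the 4 groups, 12 libraries in all. RG7112 is a small molecule that binds MDM2, the ubiquitin ligase that holds p53 at a low level, and so releases p53. The comparisons ask how the genes of the DNA copying machinery responded to the inhibitor with and without wild-type p53. With 1 line of each p53 status, p53 status and every other difference between the lines cannot be told apart.

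DNA polymerase alpha with its primase starts each new strand with a short primer of RNA and DNA. Replication factor C then opens the ring-shaped clamp PCNA and places it around the DNA, and the clamp holds DNA polymerase epsilon on the leading strand and DNA polymerase delta on the lagging strand. On the lagging strand, the flap nuclease FEN1 trims the end of each primer and DNA ligase 1 seals the gap. Many of these genes are transcribed as cells approach S phase under E2F transcription factors, and p53 can lower such genes through its target CDKN1A (p21), which inhibits cyclin-dependent kinases.

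Stretches of the promoters with letters of an E2F site are shown first, since of the 4 motifs searched it was the one found in most of the 10 genes. In the RefSeq windows of 250 bases before to 50 bases after each start (GRCh38.p14), 6 of the 10 genes held an E2F motif, spelled TTTCCCGC or TTTGGCGC or TTTGCCGC or TTTCGCGC on either strand, against 3.31% of all 35116 windows. These were PCNA, LIG1, POLA1, POLA2, POLE and POLE2. Each line gives the motif in capitals with 10 bases on each side, read 5′ to 3′ on the strand of the gene.
PCNA, chr20:5126664-5126691, minus strand: agcgtcagggGCGGGAAAaggcgtgcgt
LIG1, chr19:48170441-48170468, minus strand: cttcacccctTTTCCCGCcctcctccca
POLA1, chrX:24693771-24693798, plus strand: tcatcacaggGCGCCAAAcgcgcgtccg
POLA2, chr11:65261899-65261926, plus strand: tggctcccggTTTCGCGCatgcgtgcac
POLE, chr12:132687343-132687370, minus strand: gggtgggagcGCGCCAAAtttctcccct
POLE2, chr14:49688202-49688229, minus strand: tgcggcggtgGCGCCAAAtcgcaaatat

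The motif began 137 bases before the start in POLA1, 114 in LIG1, 59 in PCNA, 53 in POLA2, 18 in POLE and 5 in POLE2. The CCAAT box, CCAAT on either strand, was in a window of 4 genes (PCNA, POLA1, POLE and PRIM1), against 34.6% of all windows. The CHR element, TTTGAA or TTCGAA on either strand, was in a window of 0 of the 10 genes, against 16.4% of all windows. A p53 half-site, searched by its consensus, lay in 1 gene, in the second of the 2 windows of PCNA, 226 bases before that start, against 6.63% of all windows. It is given with 10 bases on each side and the half-site in capitals.
PCNA, second window, chr20:5120165-5120194, minus strand: acatatgcccGGACTTGTTCtgcggccggg

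These matches are descriptions of letters and are not evidence of binding. PCNA and POLD1 have 2 windows each and so had more letters to match. RFC4, which fell in A549, held none of the 4 motifs in its window, and FEN1 and POLD1 also held none.

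Values are CPM, counts relative to the size of each library, scaled between libraries by TMM, and the libraries held 2011916 to 6218825 counts. In A549, replicate 3 of both treatments stood apart from replicates 1 and 2. In replicate pairs with it, squared differences averaged 17.2 to 25.6 times the variance from counting alone. For the other pairs they averaged 5.38 to 5.93 times that variance. A count of 3 corresponded to 0.732 CPM on average in A549 with DMSO, 0.903 CPM in A549 with RG7112, 1.02 CPM in H1792 with DMSO and 0.669 CPM in H1792 with RG7112. These floors cover counting error only. The keratin markers of epithelial cells (KRT7, KRT8, KRT18 and KRT19) were present in all libraries, and with EPCAM, which had 0 to 9 counts in A549 and 3 to 35 in H1792, they summed to 14470 to 24060 CPM in A549 and 1069 to 2185 CPM in H1792. Of the lung lineage markers, NKX2-1 and SFTPB had 3 counts or fewer in every library, as had NAPSA in H1792, while NAPSA had 6 to 26 counts in A549. Of the markers of other cells, PTPRC, CD3E, PECAM1, VWF, DCN and LUM had 3 counts or fewer in every library, the endothelial sum reached 1.91 CPM, CD14 carried an immune sum of 13.4 to 23.7 CPM in A549 (1.15 CPM at most in H1792), and COL1A1 carried a fibroblast sum of 189 to 295 CPM in H1792. As a check of the treatment, MDM2, itself a p53 target, rose in A549 (log2 fold change 2.99, SE 0.453, adjusted p = 0.0102, or 0.0534 without replicate 2 of DMSO) and had a log2 fold change of -0.05 in H1792 (SE 0.352, adjusted p = 0.928).

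In A549, RFC4 and POLA2 fell with RG7112, 2 of the 7 genes that could be tested, against 4.03% of all genes. All 7 had a log2 fold change below 0, against 5467 of all 10739 genes tested. PRIM1 and POLE passed the filter on low counts through their DMSO libraries, so their direction adds no weight here. The filter removed FEN1, POLA1 and POLE2. Without it their log2 fold changes were 1.22, -1.33 and -3.09, and none of them passed. In H1792, POLE, LIG1, POLD1 and POLA2 fell, 4 of the 9 tested genes against 16.5% of all genes. Of the 4, only POLE still passed with a correction for G and C content, described below. None of the 9 rose, against 17.7% of all genes. POLA2 passed the test in both lines, though neither call held with every single library left out. Passing means a Benjamini-Hochberg adjusted p under 0.05 over all genes tested in edgeR's quasi-likelihood test, and a differentially expressed gene (DEG) also had an absolute log2 fold change over 1. In bulk RNA, fewer cells in S phase and less of each RNA per cell cannot be told apart.

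**Figure D1:**
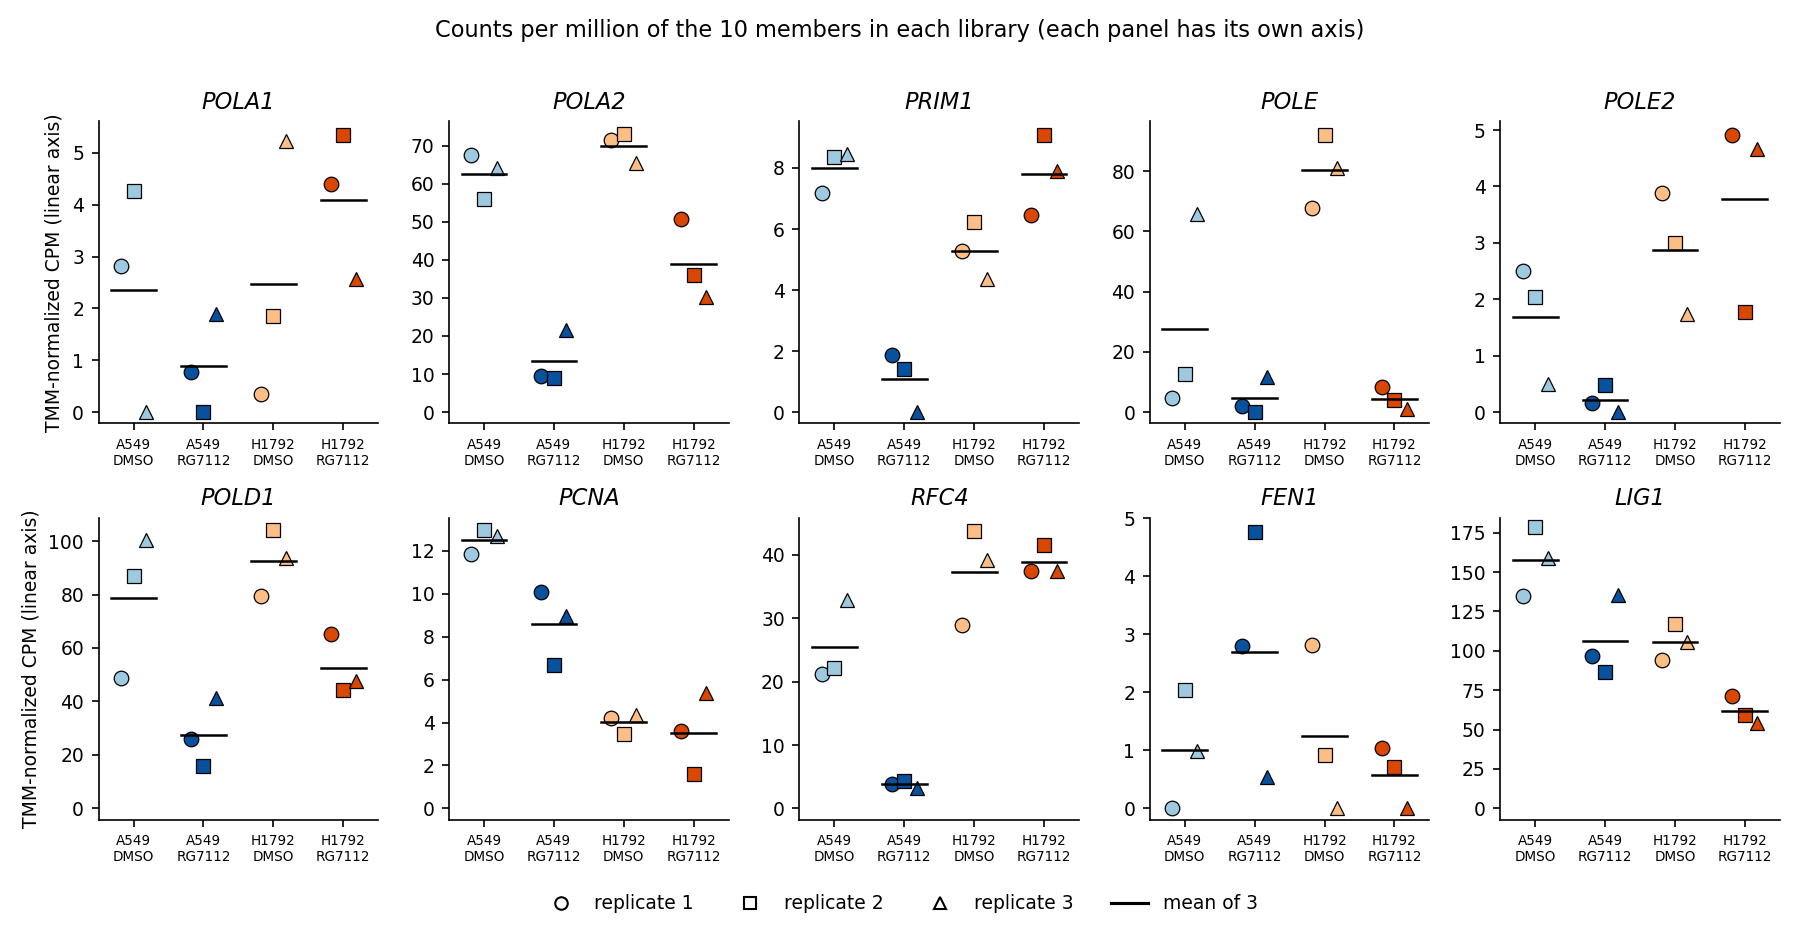
TMM-normalized CPM (linear axis, each panel with its own scale) of the 10 genes in the 12 libraries, with circles, squares and triangles for replicates 1, 2 and 3 and a line at the mean of 3. RFC4 and PRIM1 were low in all 3 RG7112 libraries of A549 and in none of H1792, while POLE was low in all 3 RG7112 libraries of H1792 and high in 1 DMSO library of A549.

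POLA1 (ENSG00000101868, chrX:24693919-24996986) is the catalytic subunit of DNA polymerase alpha. It had few counts, 0 to 30 in a library. In A549 the 3 DMSO libraries gave 2.81, 4.27 and 0 CPM and the 3 RG7112 libraries 0.775, 0 and 1.90 CPM (replicates 1, 2 and 3). The A549 groups overlapped, and POLA1 did not pass the filter on low counts there. In H1792 it stood at 0.352, 1.85 and 5.23 CPM with DMSO and at 4.39, 5.34 and 2.56 CPM with RG7112. The H1792 groups overlapped as well, with a log2 fold change of 0.86 (SE 0.769, adjusted p = 0.418).

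POLA2 (ENSG00000014138, chr11:65261762-65305589) is the regulatory B subunit of the same polymerase. The few counts of POLA1 do not settle whether the 2 subunits responded alike. In A549 it was counted at 67.5, 56.0 and 64.0 CPM with DMSO and at 9.61, 9.06 and 21.5 CPM with RG7112. All 3 RG7112 libraries lay well below all 3 DMSO libraries. POLA2 fell by 2.21 on the log2 scale (SE 0.360, adjusted p = 0.0124), from a mean of 62.5 ± 5.90 to 13.4 ± 7.01 CPM (SD, n = 3, edgeR). In H1792 it was counted at 71.5, 73.2 and 65.4 CPM with DMSO and at 50.6, 35.9 and 30.3 CPM with RG7112. It fell by 0.78 (SE 0.197, adjusted p = 0.0246), again with no overlap between the groups. The A549 call was lost without replicate 1 of either group (adjusted p = 0.0551 without the DMSO library and 0.0530 without the RG7112 library). The H1792 call was lost without any one DMSO library or without replicate 2 or 3 of RG7112 (adjusted p 0.0568 to 0.0818). It was also lost with scaling by library size only (0.0643), in a fit of all 12 libraries (0.0583) and with the correction for G and C content described below.

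PRIM1 (ENSG00000198056, chr12:56731596-56752373) is the catalytic subunit of the primase that lays down the RNA primer. The A549 DMSO libraries gave 7.18, 8.36 and 8.47 CPM and the RG7112 libraries 1.86, 1.43 and 0 CPM. These groups did not overlap. The log2 fold change was -2.79 (SE 0.785), and the adjusted p of 0.0761 (edgeR) missed the threshold. In H1792 the values were 5.29, 6.23 and 4.36 CPM with DMSO and 6.46, 9.07 and 7.92 CPM with RG7112. Here every RG7112 library lay above every DMSO library, with a log2 fold change of 0.63 (SE 0.288, adjusted p = 0.134). PRIM1 shares exon positions with NACA and AC117378.1 on its own strand and with HSD17B6 on the other, so part of its counts could belong to them.

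POLE (ENSG00000177084, chr12:132623753-132687365) encodes the catalytic subunit of the leading-strand polymerase. In H1792 it was counted at 67.7, 91.9 and 81.1 CPM with DMSO and at 8.27, 3.91 and 0.931 CPM with RG7112. The highest RG7112 library was far below the lowest DMSO library. POLE fell by 4.14 (SE 0.568, adjusted p = 0.00448), from 80.2 ± 12.1 to 4.37 ± 3.69 CPM (SD, n = 3, edgeR), the largest change among the 10 genes in H1792. Leaving out any single H1792 library gave values from -4.88 to -3.68 and kept the call. In A549 the DMSO libraries gave 4.69, 12.8 and 65.8 CPM and the RG7112 libraries 2.02, 0 and 11.7 CPM. The groups overlapped, and replicate 3 was the highest library of both treatments. The log2 fold change of -2.55 (SE 1.27) did not pass (adjusted p = 0.278), and without replicate 3 of the DMSO group it was -0.92 and without that of the RG7112 group -4.34.

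POLE2 (ENSG00000100479, chr14:49643555-49688422) is the second subunit of polymerase epsilon. It had 0 to 20 counts in a library. In A549 it stood at 2.50, 2.05 and 0.498 CPM with DMSO and at 0.155, 0.477 and 0 CPM with RG7112, where no library held more than 1 count. The 3 DMSO libraries held 22 counts together, 2 of them in replicate 3, and the 3 RG7112 libraries 2 counts, a ratio of 10.3 relative to library size (exact Clopper-Pearson 95% interval 2.53 to 90.3, counting error only). The filter on low counts removed POLE2 in A549, so no test across replicates was made there. In H1792 it stood at 3.88, 3.00 and 1.74 CPM with DMSO and at 4.91, 1.78 and 4.66 CPM with RG7112. The H1792 groups overlapped (log2 fold change 0.43, SE 0.527, adjusted p = 0.559).

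POLD1 (ENSG00000062822, chr19:50384204-50418016) encodes the catalytic subunit of the lagging-strand polymerase delta. A549 gave 48.7, 87.0 and 100.4 CPM with DMSO and 25.9, 15.7 and 41.3 CPM with RG7112. The groups did not overlap, and the log2 fold change was -1.50 (SE 0.403, adjusted p = 0.0676). H1792 gave 79.3, 104.3 and 93.7 CPM with DMSO and 65.4, 44.3 and 47.5 CPM with RG7112. In H1792 POLD1 fell by 0.75 (SE 0.176, adjusted p = 0.0196), with no overlap. That call was lost without replicate 2 or 3 of either group (adjusted p 0.0584 to 0.0673), with scaling by library size only (0.0509) and in a fit of all 12 libraries (0.0958). It was also lost with the replicate block and with the correction for G and C content, both described below.

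PCNA (ENSG00000132646, chr20:5114953-5126626) is the sliding clamp. Its A549 libraries gave 11.9, 13.0 and 12.7 CPM with DMSO and 10.1, 6.67 and 8.96 CPM with RG7112. All RG7112 libraries were below all DMSO libraries, by a log2 fold change of -0.53 (SE 0.279) that did not pass (adjusted p = 0.306). Its H1792 libraries gave 4.23, 3.46 and 4.36 CPM with DMSO and 3.62, 1.60 and 5.35 CPM with RG7112. These groups overlapped (log2 fold change -0.12, SE 0.4996, adjusted p = 0.875). The annotation names 3 pseudogenes after PCNA, none of them among the counted genes. PCNA and FEN1 are usually abundant in dividing cells, and whether the authors' summing per gene took in all their transcripts was not tested, so every PCNA and FEN1 value here describes the deposited counts.

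RFC4 (ENSG00000163918, chr3:186789880-186807058) is one of the small subunits of the clamp loader. The A549 DMSO libraries gave 21.2, 22.2 and 32.9 CPM, and the RG7112 libraries gave 3.87, 4.29 and 3.26 CPM. RFC4 fell by 2.74 (SE 0.304, adjusted p = 0.00300), from 25.4 ± 6.46 to 3.81 ± 0.519 CPM (SD, n = 3, edgeR). The 3 RG7112 libraries lay close together, far below the DMSO libraries. In H1792 the values were 28.9, 43.9 and 39.2 CPM with DMSO and 37.5, 41.6 and 37.5 CPM with RG7112. These groups overlapped, and the log2 fold change was 0.13 (SE 0.175, adjusted p = 0.588). The end of RFC4 overlaps an exon of EIF4A2 on the other strand, and whether the counting used strand is not given in the sources used here.

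FEN1 (ENSG00000168496, chr11:61792637-61797244), the flap nuclease, had 0 to 18 counts in a library and did not pass the filter in either line. A549 gave 0, 2.05 and 0.996 CPM with DMSO and 2.79, 4.77 and 0.543 CPM with RG7112. H1792 gave 2.82, 0.923 and 0 CPM with DMSO and 1.03, 0.712 and 0 CPM with RG7112. The groups overlapped in both lines, and a change in FEN1 was not detectable at the depth of the deposited counts. FEN1 shares exon positions with FADS2 and TMEM258, so its reads can be divided between genes.

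LIG1 (ENSG00000105486, chr19:48115445-48170603), the ligase that joins the finished fragments, had the most counts of the 10 genes, 182 to 1045 in a library. A549 gave 134.6, 178.3 and 159.2 CPM with DMSO and 96.7, 86.8 and 135.3 CPM with RG7112. The groups overlapped by a narrow margin, at replicate 3 of RG7112 and replicate 1 of DMSO, and the log2 fold change was -0.57 (SE 0.206, adjusted p = 0.147). H1792 gave 94.1, 117.0 and 105.5 CPM with DMSO and 71.3, 59.2 and 54.0 CPM with RG7112. LIG1 fell by 0.71 in H1792 (SE 0.132, adjusted p = 0.00936), with every RG7112 library below every DMSO library. That call was lost with the correction for G and C content described below.

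**Figure D2:**
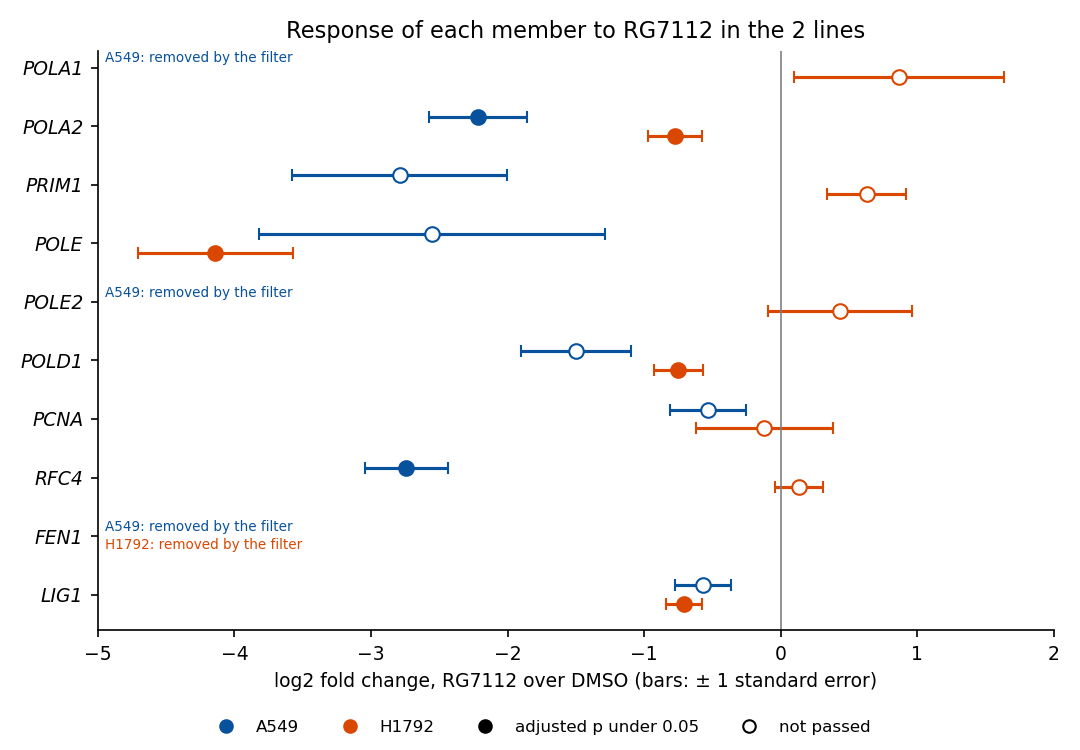
Log2 fold changes of RG7112 over DMSO with bars of ± 1 standard error for each gene in A549 (blue) and H1792 (orange), with filled points for an adjusted p under 0.05. RFC4 and POLA2 are filled in A549 and POLE, LIG1, POLD1 and POLA2 in H1792, and PRIM1 and RFC4 have values on opposite sides of 0 in the 2 lines.

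In A549, 2 of the 7 tested genes fell and both were DEGs, none rose, and 5 did not pass. Of all 10739 genes tested in A549, 4.03% fell, 4.35% rose and 3.01% were DEGs that fell. The CPM of 5 of the 7 genes did not overlap between the treatments and were lower with RG7112 (PCNA, POLA2, POLD1, PRIM1 and RFC4), against 16.3% of all genes. The median log2 fold change of the 7 genes was -2.21, and that of all tested genes was -0.01. The 7 genes are those left by the filter on low counts, so these figures do not describe all 10. PRIM1 and POLE passed that filter through their DMSO libraries, which favours a fall. With DESeq2, 4 genes fell in A549 (POLA2, POLD1, PRIM1 and RFC4), and with both replicate 3 libraries left out, 3 genes fell (POLA2, PRIM1 and RFC4).

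In H1792, 4 of the 9 tested genes fell, 1 of them (POLE) as a DEG, and 5 did not pass. Of all 9914 genes tested in H1792, 16.5% fell, 17.7% rose and 4.34% were DEGs that fell. The groups did not overlap and were lower with RG7112 for 4 of the 9 genes, against 28.4% of all genes. The median of the 9 genes was -0.12, against 0.01 for all genes. The transcripts of the 4 genes that fell held 54.5% (POLA2), 55.6% (POLE), 56.4% (LIG1) and 65.0% (POLD1) of G and C, and those of the 5 that did not pass held 40.7% to 45.4%, where the median of all genes was 48.9%. The RG7112 libraries of H1792 had a count-weighted mean G and C content of 51.06% to 51.47%, below the 52.25% to 52.42% of its DMSO libraries. With a correction for G and C content, POLE fell by 3.84 (adjusted p = 0.00541, edgeR), while LIG1 (-0.36, adjusted p = 0.0541), POLA2 (-0.52, adjusted p = 0.0795) and POLD1 (-0.12, adjusted p = 0.537) no longer passed.

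The difference between the 2 responses was tested in a fit of all 12 libraries, with a negative value where the log2 fold change of A549 was the lower one. RFC4 differed by -2.80 (SE 0.336, adjusted p = 0.000433), PRIM1 by -3.34 (SE 0.847, adjusted p = 0.0191) and POLA2 by -1.36 (SE 0.424, adjusted p = 0.0423, edgeR). The clamp loader subunit, the primase and the polymerase alpha subunit thus had lower responses in A549, 3 of the 9 genes tested, against 11.4% of all 11666 genes, and 0 of the 9 were higher, against 10.4% of all genes. At an unadjusted p under 0.05 there were 4 of the 9, all lower, against 4228 of all 11666 genes in either direction. POLE2 missed the threshold (-3.46, adjusted p = 0.0528), and its value is no bound because its RG7112 group in A549 was at the floor. The differences of POLE (1.66, SE 1.501, adjusted p = 0.456), POLA1 (-2.07), POLD1 (-0.67), LIG1 (0.22) and PCNA (-0.34) did not pass. The large fall of POLE in H1792 was therefore not shown to differ from its response in A549. The RFC4 and PRIM1 differences passed with each single library left out in turn. That of POLA2 passed in only 2 of the 12 such fits (adjusted p 0.00315 to 0.0863). PRIM1 held 0 to 12 counts in the RG7112 libraries of A549, near the floor. Its difference passed in 9 of 10 fits with other settings (adjusted p up to 0.0839).

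Between the DMSO groups of the 2 lines, PCNA and LIG1 differed. PCNA was higher in A549 than in H1792 with DMSO by 1.64 on the log2 scale (SE 0.395, adjusted p = 0.00542) and LIG1 by 0.58 (SE 0.184, adjusted p = 0.0231, edgeR), 2 of 9 genes tested against 25.6% of all genes, and 0 of 9 were lower, against 22.0% of all genes. For PCNA the 3 A549 libraries were at 11.9 to 13.0 CPM and the 3 H1792 libraries at 3.46 to 4.36 CPM of the deposited counts, with the limit on its summing given above. POLE was lower in every A549 library than in every H1792 library (-1.53, SE 0.976, adjusted p = 0.219). Without replicate 3 of both A549 groups, POLE (-3.15, adjusted p = 0.00677) and RFC4 (-0.78, adjusted p = 0.0104) were lower in A549, where the value of RFC4 over all libraries was -0.55 (adjusted p = 0.0602). The LIG1 difference did not pass without replicate 2 of A549 with DMSO (adjusted p = 0.0809) and without replicate 1 (0.0888) or 3 (0.0640) of H1792 with DMSO.

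Levels of different genes were compared as CPM per kb of merged exons. In A549 with DMSO the order began with LIG1 at 23.9 ± 3.33, POLD1 at 15.96 ± 5.44 and POLA2 at 10.9 ± 1.03 CPM per kb (SD, n = 3), then PCNA at 8.51 ± 0.390 and RFC4 at 8.49 ± 2.16. The intervals of 1 SD overlapped between LIG1 and POLD1, POLD1 and POLA2, POLA2 and RFC4, and PCNA and RFC4. PRIM1 (3.28 ± 0.293), POLE (1.67 ± 2.00), POLE2 (0.569 ± 0.355), FEN1 (0.410 ± 0.413) and POLA1 (0.372 ± 0.342) followed. With RG7112 the order in A549 began with LIG1 (16.2 ± 3.90), PCNA (5.83 ± 1.18), POLD1 (5.60 ± 2.61) and POLA2 (2.34 ± 1.22), and RFC4 stood at 1.27 ± 0.173. From PCNA down to RFC4, each of these overlapped with the next. In H1792 with DMSO, POLD1 (18.7 ± 2.55) and LIG1 (16.1 ± 1.74) overlapped at the top, followed by RFC4 (12.5 ± 2.56), which overlapped with LIG1 and with POLA2 (12.2 ± 0.715), and by POLE (4.83 ± 0.730), which lay apart. With RG7112, RFC4 led in H1792 at 13.0 ± 0.801, POLD1 and LIG1 stood at 10.6 ± 2.30 and 9.35 ± 1.35, and POLE was at 0.263 ± 0.222. RFC4 and POLD1 overlapped there, as did POLD1 and LIG1. With the longest transcript as length, RFC4 was at 17.6 CPM per kb in A549 with DMSO, ranking 3 of 10 and above POLA2 (16.7), and at 25.8 in H1792 with DMSO, ranking 2 of 10 and above LIG1 (25.7).

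**Figure D3:**
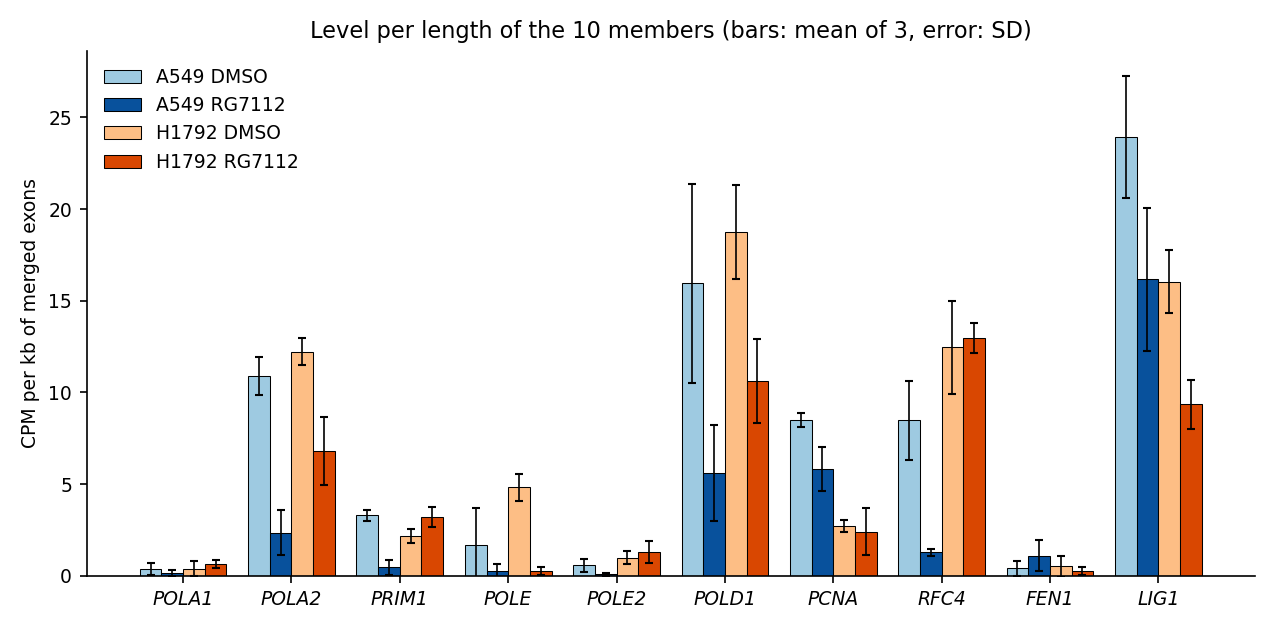
CPM per kb of merged exons (linear axis from 0), as the mean of 3 libraries with the SD, for each gene in the 4 groups. LIG1 was the highest in both A549 groups, and RFC4 was the highest in H1792 with RG7112 at 13.0 and was at 1.27 in A549 with RG7112.

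The catalytic subunits and their partners were also compared within each library, as the log2 ratio of CPM + 1, which needs no scaling between libraries apart from the added 1. The ratio of POLA1 to POLA2 was -4.17, -3.44 and -6.02 with DMSO in A549 and -2.58, -3.33 and -2.95 with RG7112, a difference of 1.59. In H1792 it was -5.75, -4.70 and -3.41 with DMSO and -3.26, -2.54 and -3.13 with RG7112, a difference of 1.64. In both lines all RG7112 values were above all DMSO values, with POLA2 lower and POLA1 at few counts. With 0.1 CPM added in place of 1 the groups overlapped in A549 (difference 1.38, exact permutation p = 0.5).

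The ratio of POLE to POLE2 was 3.82, 4.54 and 4.90 with DMSO in H1792 and 0.65, 0.82 and -1.55 with RG7112, a difference of -4.44 with no overlap. In A549 this ratio ran from 0.70 to 5.48 with DMSO and from -0.56 to 3.66 with RG7112 and overlapped. The ratio of PCNA to RFC4 was -0.79, -0.73 and -1.31 with DMSO in A549 and 1.18, 0.54 and 1.23 with RG7112. The difference was 1.92 in A549 with no overlap, whereas in H1792 the groups overlapped (-3.33 to -2.52 with DMSO and -4.03 to -2.60 with RG7112). These ratios are not scaled by gene length, so only their change is read and not their sign. The ratios of POLA1 to PRIM1 and of FEN1 to LIG1 overlapped between treatments in both lines. In the two-sided exact permutation test, the smallest p that 3 samples against 3 allow is 0.1, which the 4 ratios without overlap reached (adjusted p = 0.25 over 10 tests).

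**Figure D4:**
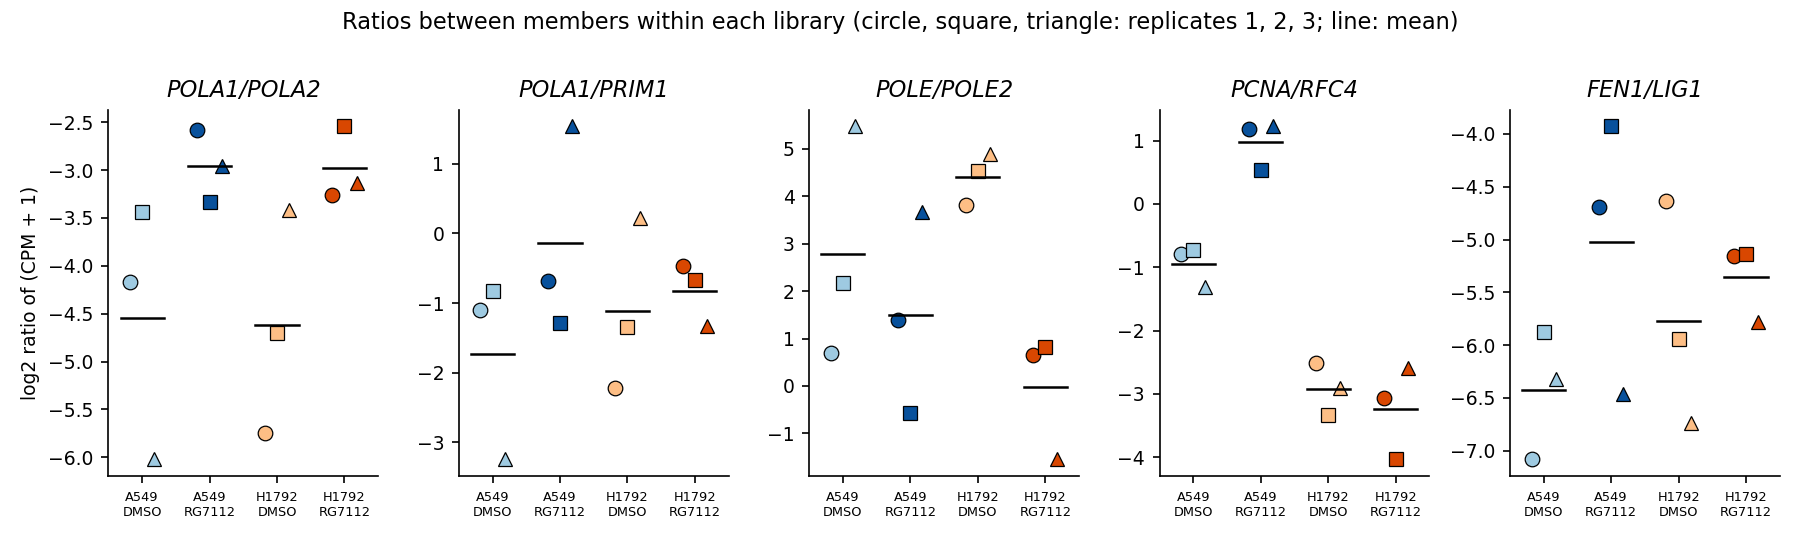
Log2 ratio of CPM + 1 between 5 pairs of genes in each library, with circles, squares and triangles for replicates 1, 2 and 3 and a line at the mean. The POLE to POLE2 ratio of H1792 was between 3.82 and 4.90 with DMSO and between -1.55 and 0.82 with RG7112. The PCNA to RFC4 ratio of A549 was between -1.31 and -0.73 with DMSO and between 0.54 and 1.23 with RG7112.

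Beside the 10 genes, 46 other genes of DNA synthesis were read in 7 lists. In A549, 11 of the 41 tested list genes fell and 1 rose, with a median log2 fold change of -0.63, against 4.03% and 4.35% of all genes. In H1792, 6 of the 36 tested fell and 4 rose, with a median of 0.11, against 16.5% and 17.7% of all genes. With any single library left out, the A549 calls of RFC2, RFC5, DSCC1, CHTF18, RNASEH2A and RPA3 held, and those of POLE3, POLE4, PCLAF, RPA1, LIG3 and CDKN1A were lost in 3 to 6 of the 6 fits. In H1792 the calls of RPA2, LIG3, POLRMT and RNASEH2C held in all such fits and with the G and C correction, whereas those of POLD3, POLD4, POLL, XRCC1 and CHTF8 were lost with the correction and in 3 to 6 of the 6 fits, and that of POLG in 4 of the 6 fits.

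Of the other subunits of the same complexes, 4 of 8 tested fell in A549 (median -1.01), and in H1792 1 of 9 fell and 1 rose (median 0.29). The loader subunits RFC2 and RFC5 fell by 1.83 (adjusted p = 0.00647) and 1.97 (adjusted p = 0.00721) in A549, and POLE3 and POLE4, the histone-fold subunits of polymerase epsilon, by 0.85 (adjusted p = 0.0259) and 1.17 (adjusted p = 0.0374). RFC2 was at 48.1, 68.3 and 56.3 CPM with DMSO in A549 and at 14.6, 20.5 and 13.9 CPM with RG7112, and RFC5 at 22.8, 22.2 and 27.9 CPM against 6.199, 7.63 and 4.89 CPM. The 3 loader subunits RFC2, RFC4 and RFC5 thus fell in A549. Of the other loader subunits, RFC1 averaged 25.8 CPM with DMSO and 15.6 CPM with RG7112 there and did not pass. RFC3 was removed by the filter on low counts. It had 58 counts with DMSO, 0 to 41 in a library, and 2 with RG7112. The ratio was 27.1 relative to library size (exact Clopper-Pearson 95% interval 7.18 to 229, counting error only). In H1792 RFC2 (0.16, adjusted p = 0.337) and RFC5 (0.29, adjusted p = 0.233) did not pass, as RFC4 had not. There POLD4, the smallest subunit of polymerase delta, fell by 0.48 (adjusted p = 0.0336) and POLD3 rose by 0.62 (adjusted p = 0.0433). With the G and C correction POLD4 was at -0.041 (adjusted p = 0.840) and POLD3 at 0.27 (adjusted p = 0.364).

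Of the alternative clamp loaders, 2 of 4 fell in A549 (median -0.85) and 1 of 3 in H1792 (median -0.68). DSCC1 and CHTF18 belong to the loader that works with sister chromatid cohesion. DSCC1 was at 6.23 to 6.49 CPM with DMSO in A549 and had 1 count in each RG7112 library, 83 counts against 3 and a ratio of 25.9 relative to library size (exact Clopper-Pearson 95% interval 8.55 to 128.0, counting error only). It passed (adjusted p = 0.00379), and CHTF18 fell by 1.76 (adjusted p = 0.00602). CHTF8, the third subunit of that loader, fell by 1.39 in H1792 (adjusted p = 0.0478). Of the genes for primer and flap processing, 1 of 5 fell in A549 (median -0.63), namely RNASEH2A, the catalytic subunit of ribonuclease H2, by 2.97 (adjusted p = 0.00196), and 1 of 4 in H1792 (median -0.05), namely RNASEH2C by 0.77 (adjusted p = 0.00662).

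Of the replisome partners, 3 of 6 fell and 1 rose in A549 (median -1.25), and 1 of 6 rose in H1792 (median 0.17). PCLAF, a small protein that binds PCNA, fell by 3.02 (log2) in A549 (adjusted p = 0.0296), and RPA3 by 1.71 (adjusted p = 0.00521) and RPA1 by 0.73 (adjusted p = 0.0332), both subunits of the protein that coats single-stranded DNA. CDKN1A, whose product p21 also binds PCNA, rose by 3.58 in A549 (adjusted p = 0.0252), from 45.0, 42.5 and 24.2 CPM to 203.0, 189.7 and 942.3 CPM. Without replicate 3 of RG7112 the CDKN1A value was 2.41 (adjusted p = 0.00914), and without replicate 1, 2 or 3 of DMSO the call was lost (adjusted p = 0.0901, 0.0960 and 0.0867), as with the replicate block (0.0672). It had a log2 fold change of 0.15 in H1792 (adjusted p = 0.882), where PCLAF was at 0.00 (adjusted p = 0.996) and RPA2 rose by 0.99 (adjusted p = 0.0102).

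The translesion polymerases had 0 of 7 tested genes passing in A549 and 0 of 4 in H1792 in edgeR, with medians of -0.02 and 0.13. Of all genes, 4.03% fell and 4.35% rose in A549, and 16.5% fell and 17.7% rose in H1792. At the A549 shares, 0 of 7 does not set the list apart from all genes. None of the list had an unadjusted p under 0.05 in either line, against 2567 of all 10739 genes in A549 and 4556 of all 9914 in H1792. POLH, the polymerase eta gene, for which the summing of transcripts was not tested either, had 0 counts in 10 libraries, 26 in replicate 3 of H1792 with DMSO and 1 in replicate 3 of H1792 with RG7112. Of the repair polymerases and ligases, 1 of 6 fell in A549 (median 0.17), LIG3 by 0.79 (adjusted p = 0.0360), and in H1792 2 of 5 fell and 1 rose (median -0.28). LIG3 rose there by 0.72 (adjusted p = 0.0114), while POLL fell by 0.48 (adjusted p = 0.0150) and XRCC1, the partner of LIG3, by 0.28 (adjusted p = 0.0419). With the G and C correction POLL was at -0.16 (adjusted p = 0.273) and XRCC1 at 0.15 (adjusted p = 0.237). Of the genes of mitochondrial DNA replication, none of 5 passed in A549 (median -0.18, 1 with an unadjusted p under 0.05), and in H1792 POLRMT, the mitochondrial RNA polymerase, fell by 1.85 (adjusted p = 0.00482) and POLG, the mitochondrial DNA polymerase, rose by 0.77 (adjusted p = 0.0244), with a median of 0.03 over 5.

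**Figure D5:**
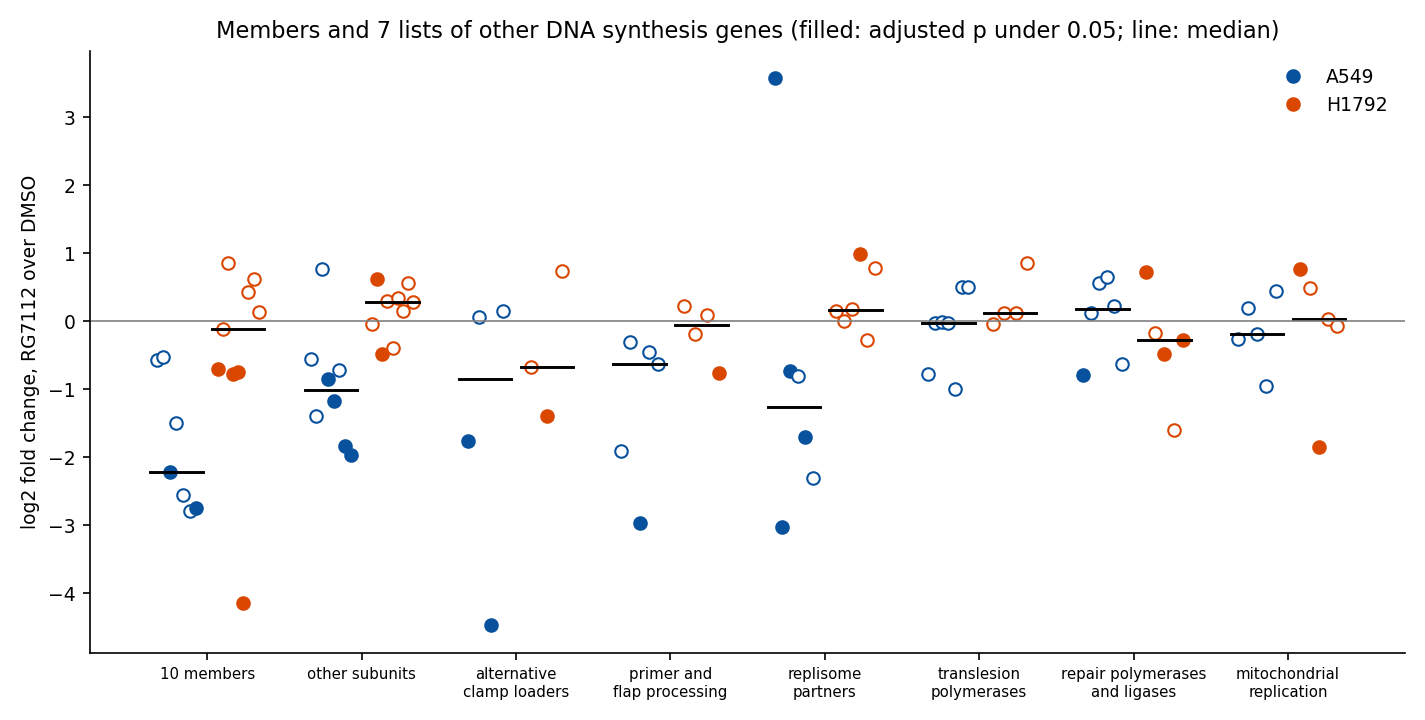
Log2 fold changes of RG7112 over DMSO for every tested gene of the 10 and of the 7 other lists in A549 (blue) and H1792 (orange), with filled points for an adjusted p under 0.05 and a line at the median. In A549 the medians of the 7 tested of the 10 genes and of the tested other subunits were -2.21 and -1.01. That of the tested translesion polymerases was -0.02.

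The mean profile of the 10 genes over the 12 libraries, on the scale of log2(CPM + 1) centred on each gene, was lowest in A549 with RG7112 (-0.84, -1.15 and -0.68), between -0.23 and 0.25 in H1792 with RG7112, and between 0.12 and 0.63 in the DMSO libraries of both lines. POLD1 (root mean square distance 0.275) and POLA2 (0.470) followed this mean most closely, and POLE (1.73) and FEN1 (1.13) least. Of 11657 other genes, those nearest to the mean profile were MDC1, a DNA damage mediator, at 0.165, the tubulin gene TUBA1C at 0.190, TRMU at 0.197, MALSU1 at 0.214 and SNRNP25 at 0.223, where the median of all genes was 0.887. A further 3 identifiers without a symbol had the same counts as MDC1 in every library. Whether reads were divided among these identifiers was not tested, so the level and distance of MDC1 describe only its row of the deposited counts. That row averaged 2.95 CPM with DMSO and 0.870 CPM with RG7112 in A549, and 3.61 and 2.25 CPM in H1792. In A549 with RG7112 it thus lay below the mean floor of 0.903 CPM for 3 counts. TUBA1C averaged 2790 CPM with DMSO and 1262 CPM with RG7112 in A549, and 2733 and 2359 CPM in H1792.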

How the data were processed

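RNA of A549 and H1792 cells, 3 replicates each with DMSO or RG7112, was enriched for poly-A RNA. The authors estimated transcript abundances with kallisto (0.45.0, per the submitters' processing notes, on GRCh38) and deposited them added up per gene as estimated counts (expected counts), whole numbers without normalization. The names of the RG7112 columns give the dose as 0.1 μM, and the 1 μM of the labels and methods was used. The labels and the methods also differ on the sequencer, the read length and the medium of A549, and whether the counting used strand is not given in the sources used here. Nothing states that replicates were separate cultures, so p-values measure the spread between these samples, which may be technical.

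Symbols, positions and G and C content came from GENCODE v29, and promoters from RefSeq. Each line was fitted on its own in edgeR 4.0.16 (R 4.3.3): filterByExpr (minimum count 10, minimum total 15), TMM, robust quasi-likelihood fit over all genes, Benjamini-Hochberg adjustment. The difference between responses and that between lines in DMSO came from 1 fit of the 12 samples. Ratios were tested in scipy 1.17.1. The fits were tested on simulated data. The SE is the absolute log2 fold change over the root of F. The common coefficient of biological variation (BCV) over genes was 0.345 for A549 and 0.270 for H1792.

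The 10 genes and the lists were chosen with earlier results of these data known. By rule, the text names all 10 genes, up to 4 genes of each list and line that passed, by smallest p, CDKN1A, MDM2, POLH and PCLAF always, and the 8 genes whose profile is nearest to the mean of the 10. Alternatives were DESeq2 1.42.0, limma-trend (3.58.1) with and without sample weights, scaling by RLE or by library size alone, omission of the filter, at least 10 counts in every sample, stricter thresholds, the replicate block, a loess correction for G and C content (span 0.5), leaving out libraries, the longest transcript as length, and an added CPM of 0.1. A search of protein motifs was not run.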

Additional observations from a re-analysis of the deposited data

Results flagged for a closer look

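A result is given here where the difference between the log2 fold changes of the 2 lines (A549 less H1792, edgeR over 12 samples) had an adjusted p under 0.05. Groups of 3 libraries are too small for a test of single libraries that stand apart.

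Of the 10 genes, RFC4 (-2.80), PRIM1 (-3.34) and POLA2 (-1.36) were flagged, all with the lower response in A549. Of the other named subunits, RFC2 (-1.93), RFC5 (-2.18), POLE3 (-1.07) and POLD3 (-1.93) were lower in A549 and POLD4 (1.32) was higher. With RFC4, 3 loader subunits were therefore flagged in the same direction, and RFC1 and RFC3 were not flagged. DSCC1 (-5.13) and RNASEH2A (-2.72) were also lower, and the value of DSCC1 is no bound, since its RG7112 libraries in A549 held 1 count each.

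Among the replisome partners, PCLAF (-2.95), RPA1 (-0.85), RPA2 (-1.72) and RPA3 (-1.36) were lower in A549, and CDKN1A (3.40) was higher. MDM2 (3.12) was higher as well. LIG3 (-1.43) was lower in A549, and POLL (1.21) and POLRMT (1.73) were higher. Not all of these differences held in the 12 fits with 1 library left out. That of POLA2 passed in 2 of the 12, those of CDKN1A and POLRMT in 3, that of RPA1 in 5 and that of POLD4 in 6. Those of the other flagged genes passed in all 12. RPA2 and LIG3 rose and POLRMT fell in H1792, also with the correction for G and C content, while the H1792 calls of POLD3 (0.27 with the correction, adjusted p = 0.364), POLD4 (-0.041, adjusted p = 0.840) and POLL (-0.16, adjusted p = 0.273) were lost with it.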

How the results depend on the processing

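Depth limits FEN1, POLA1 and POLE2, which held 0 to 30 counts in a library, and PRIM1 in A549 with RG7112 (0 to 12 counts). The replicate 3 libraries of A549 and the G and C content of H1792 move with values given above. Where a cause is not shown by the construction of an alternative, it was not tested. Of 666 recomputed fold changes of the 10 genes, 579 kept their direction and their side of the threshold, 41 lost and 25 gained the call, and 21 changed sign, none of them of a value that had passed. For the other named genes, 625 of 806 kept both.

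The number of the 10 genes that fell in A549 (2) was 4 with DESeq2, 4 with the G and C correction, 4 with that correction and the replicate block, 4 with all 12 samples in 1 fit, 1 at an adjusted p under 0.01, and 1 to 3 without 1 library each. All genes that fell and rose in A549 (433 and 467) were 682 and 756 with DESeq2, 851 and 706 with all 12 samples, 149 and 147 at an adjusted p under 0.01, and 164 to 350 and 157 to 375 without 1 library. The number that fell in H1792 (4) was 1 with the G and C correction, with or without the block, 2 with all 12 samples, with library size only and at an adjusted p under 0.01, 1 as DEGs, and 2 to 4 without 1 library. Without both H1792 libraries numbered 3 it was 0, and 0 genes fell and 0 rose in all (edgeR, smallest adjusted p = 0.0561), while 5 of the 10 genes and 3215 of all genes had an unadjusted p under 0.05, and no other tool was run on these samples. All genes that fell and rose in H1792 (1632 and 1752) were 849 and 2637 with library size only, which moved the median of all genes by 0.26, 686 and 697 at an adjusted p under 0.01, 430 and 1020 as DEGs, and 935 to 1685 and 916 to 1692 without 1 library. With the G and C correction 1049 fell, and with it and the block 445 fell and 544 rose.

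The difference between responses was lower for 1 of the 10 genes at an adjusted p under 0.01 and 1 with at least 10 counts in every sample, which leaves fewer genes to test. All genes lower and higher (1329 and 1210) were 460 and 388 at an adjusted p under 0.01, 2157 and 645 with library size only, and 868 and 678 with the block and the correction. The genes higher were 740 with the correction alone, 1898 with sample weights, and 689 to 1470 without 1 library. Between the lines in DMSO, 1 of the 10 genes was higher at an adjusted p under 0.01, 1 with a log2 difference over 1, 1 with at least 10 counts, and 1 to 2 without 1 library, and 2 were lower without both A549 libraries numbered 3 and 0 to 2 without 1 library. All genes lower were 1697 with a log2 difference over 1 and 1641 with at least 10 counts, where 1885 were higher.

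Replicate numbers are not stated to pair the libraries. Same-numbered DMSO and RG7112 libraries correlated in their deviations at r = 0.115, 0.0609 and 0.273 in A549 and at -0.0238, -0.00181 and 0.00346 in H1792. Differently numbered libraries of A549 had r of -0.209 to -0.132 in pairs with a replicate 3, and 0.136 and 0.102 in the others. In H1792 differently numbered pairs had r of -0.0156 to 0.0177. With the replicate block, 893 genes fell and 947 rose in H1792, POLD1 lost its call there (adjusted p = 0.0686), CDKN1A (0.0672), PCLAF (0.0730) and POLE4 (0.0612) lost theirs in A549, as did POLL (0.0639), XRCC1 (0.0944), POLD3 (0.114) and CHTF8 (0.0549) in H1792, and the differences between responses of CDKN1A (0.152), POLE3 (0.0587) and PCLAF (0.0511) no longer passed. In H1792 with the replicate block, PCLAF was at -0.0234 and MDM2 at 0.0086.

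Apart from XRCC1, the sign changed for values that had not passed. For PCNA in H1792 it was 0.14 with library size only and -0.57 to 0.24 without 1 library. For RFC4 in H1792 it was -0.11 with the correction, -0.092 with the block added, and -0.0193 to 0.24 without 1 library. For PCLAF in H1792 it was -0.0015 with DESeq2, -0.42 with the correction, -0.45 with the block added, -0.072 with all 12 samples, -0.0054 with RLE size factors, -0.0379 with limma-trend, and -0.22 to 0.21 without 1 library. For MDM2 in H1792 it was 0.22 with library size only, 0.20 without both libraries numbered 3, 0.0153 with limma-trend, 0.028 with at least 10 counts, and -0.33 to 0.23 without 1 library, and for CDKN1A -0.31 to 0.99. XRCC1 in H1792, which had passed, was at 0.15 with the correction and with the block added. In the difference between responses, LIG1 was at -0.25 with the correction, with or without the block, and -0.20 with library size only, PCNA at 0.0747 with both and -0.75 to 0.0576 without 1 library, and POLE at -0.10 to 3.28. Between the lines, POLA1 was at -0.0308 with DESeq2, -0.0398 with the correction, -0.18 with limma-trend and -0.79 to 1.01 without 1 library, POLA2 at 0.0943 and POLD1 at 0.0196 with library size only, and POLD1 at -0.44 to 0.0366. Without 1 library, the ratio differences were -0.0683 to 0.98 (FEN1 to LIG1), -0.63 to 0.0894 (PCNA to RFC4) and -0.26 to 0.96 (POLA1 to PRIM1) in H1792 and -2.37 to 0.0559 (POLE to POLE2) in A549.

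With the longest transcript as length, the DMSO levels per kb were 38.4 in A549 and 25.7 in H1792 for LIG1, 22.4 and 26.3 for POLD1, 10.0 in H1792 for POLE and 9.21 in A549 for PCNA. RFC4 was at 17.6 in A549 and 25.8 in H1792, where it changed places with POLA2 and with LIG1.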
